A study of Mus musculus with 12 samples.

Results

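Fatty acid elongases and front-end desaturases were followed as a set of 10 genes in livers of obese mice fed a standard or a low protein diet. The members were taken by name from the deposited matrix of 56980 genes: the 6 elongases Elovl1, Elovl2, Elovl3, Elovl5, Elovl6 and Elovl7 and the 4 desaturase genes Fads1, Fads2, Fads3 and Fads6. Elovl proteins carry out the first, condensing step of the microsomal cycle that lengthens fatty acyl chains, and each prefers chains of a certain length and saturation. Fads proteins place double bonds in acyl chains, and Fads1 and Fads2 alternate with Elovl5 and Elovl2 to turn the dietary linoleate and α-linolenate into arachidonate, eicosapentaenoate and docosahexaenoate. In liver, Elovl6 and the polyunsaturated arm are known targets of SREBP-1c, which rises with insulin and feeding, and several are repressed by dietary polyunsaturated fat.

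The study asked how protein restriction affects liver metabolism and steatosis in genetically obese animals. All 12 mice were males of the strain B6.Cg-Lepob/J (ob/ob), labelled Lep-/-, so every animal lacked leptin and no lean or leptin-replete group entered the comparison. They were 8 weeks old at the start, ate without restriction, and received for 3 weeks a chow with either 25% (SPD, 6 livers) or 5% (LPD, 6 livers) of its energy as protein, which made them 11 weeks old at the end. Whole liver RNA was sequenced, so fewer cells of a type and less RNA per cell cannot be told apart.

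Total counts per library ranged from 19374676 to 23710930. The diets parted on the first principal component of all tested genes (47.1% of the variance), where LPD replicates 2 and 5, at 48.7 and 44.6, lay well beyond the remaining LPD livers, at 15.3 to 22.5. LPD replicate 1 carries a treatment and a description that name 25% protein, against its title and its library code, and was kept in LPD by its title. Its Elovl6 level, 87.6 CPM, lay within the range of the other LPD livers, as did those of Elovl1, Elovl5, Elovl7, Fads1 and Fads3. Its Elovl3 level, 14.3 CPM, was the lowest of the LPD livers, toward the SPD livers. Elovl2 (411 CPM) and Fads2 (1377.3 CPM, against 1377.0 in replicate 4) were highest in it, also toward SPD. Fads6, at 157 CPM, was highest in it too, but away from SPD. On the first component it lay nearest to SPD, at 15.3. These values do not settle which label is right. Each library also has a code, with the prefix SP1 or SP2 for SPD livers and LP4 or LP5 for the others, and no batch is named. Because no code occurs in both diets, the codes and the diet cannot be told apart.

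The members lie on 6 chromosomes (GRCm38). Fads3 (chr19:10041569-10060110, plus strand), Fads2 (chr19:10062765-10101746, minus strand) and Fads1 (chr19:10182888-10196877, plus strand) form a cluster in which Fads3 and Fads2 end 2655 bases apart and the starts of Fads2 and Fads1 are 81142 bases apart. Elovl3 (chr19:46131897-46135694) is on the same chromosome at a distance from them. The others are Elovl6 (chr3:129532355-129638495), Elovl1 (chr4:118428093-118432953), Elovl5 (chr9:77917364-77984519), Fads6 (chr11:115279622-115297663), Elovl2 (chr13:41182381-41220405) and Elovl7 (chr13:108214404-108285683). The matrix holds 1 value per gene and library, with none for single exons. Gm35986, on the opposite strand within Elovl6, held 1046 counts over the 12 libraries, where Elovl6 had at least 1564 in each, and Pitx3, which overlaps Elovl3 on the opposite strand, held 10.

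Promoters are printed for 3 genes because they belong to the gene that fell most, Elovl6, and to a pair on different chromosomes that moved by nearly the same amount, Elovl5 and Fads3. The sequences are from RefSeq (GRCm38.p6), 5′ to 3′ on the gene's plus strand, and stop before the first annotated transcript start. Capitals mark matches, on either strand, to TCACNCCAC (sterol regulatory element), CCAAT (the box bound by NF-Y, ATTGG on the other strand), CACGTG (E-box), TGACGTCA (cyclic AMP response element) or TGATGNAA (amino acid response element). GGGCGG (GC box) was searched too and is not capitalised.
Elovl6, chr3:129532136-129532354: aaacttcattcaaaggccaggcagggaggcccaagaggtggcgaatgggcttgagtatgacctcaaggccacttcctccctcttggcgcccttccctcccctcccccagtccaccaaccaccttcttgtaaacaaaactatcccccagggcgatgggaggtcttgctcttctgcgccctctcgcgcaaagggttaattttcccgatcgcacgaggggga
Elovl5, chr9:77917115-77917363: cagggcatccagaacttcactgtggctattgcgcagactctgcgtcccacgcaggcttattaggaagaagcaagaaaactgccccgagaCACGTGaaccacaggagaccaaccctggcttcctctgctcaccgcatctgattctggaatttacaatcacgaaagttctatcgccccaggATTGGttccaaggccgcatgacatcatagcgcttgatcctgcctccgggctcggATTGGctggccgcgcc
Fads3, chr19:10041298-10041547: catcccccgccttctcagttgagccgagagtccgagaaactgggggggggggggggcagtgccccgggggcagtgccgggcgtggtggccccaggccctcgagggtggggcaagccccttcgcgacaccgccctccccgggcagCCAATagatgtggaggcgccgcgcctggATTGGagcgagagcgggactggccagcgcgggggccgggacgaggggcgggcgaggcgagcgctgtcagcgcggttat
Promoter entries, each from 250 bases before to 50 bases after a RefSeq start, were found for 8 of the 10 members, and all 32851 entries were searched in the same way. Fads1 and Elovl3 had no entry and were not searched. The CCAAT box was found in 3 of the 8 members, Elovl5, Fads3 and Elovl1, and in 37.4% of all promoters. Elovl5 and Fads3 each held 2 copies, and the share of all promoters with 2 copies was not computed. Of Elovl1 and Elovl2, another pair on different chromosomes with like changes (log2 fold changes of -0.46 and -0.51), Elovl2 held none. Fads2 held none either. The Elovl5 window also held the E-box, present in 7.15% of all promoters, and, 3 bases past its start and so outside the printed stretch, the cyclic AMP response element, present in 1.79%. GC boxes were found in 6 of the 8 members and in 35.7% of all promoters, and 1 of those of Elovl1 overlaps its CCAAT box. Neither the sterol regulatory element (1.24% of all promoters) nor the amino acid response element (3.97%) was found in these windows of the members, and the Elovl6 window held none of the 6 motifs. A match is a string of letters and was not tested as a binding site.

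All 10 members passed the filter on low counts. By edgeR's quasi-likelihood test with Benjamini-Hochberg adjustment over 13768 genes (threshold 0.05), 8 of the 10 were lower in LPD livers, where 19.2% of all tested genes were lower, and 2 of 10 were higher, where 20.7% of all were. In either direction 10 of 10 members were called, against 39.9% of all genes. In 8 of the 10 the diets did not overlap in any liver, as in 19.9% of all genes. The median log2 fold change of LPD over SPD was -0.89 over the members and -0.00059 over all genes tested. The plot of levels in each liver shows the spread of Elovl6 and of Elovl3 among SPD livers and the opposite move of Elovl3.

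**Figure D1:**
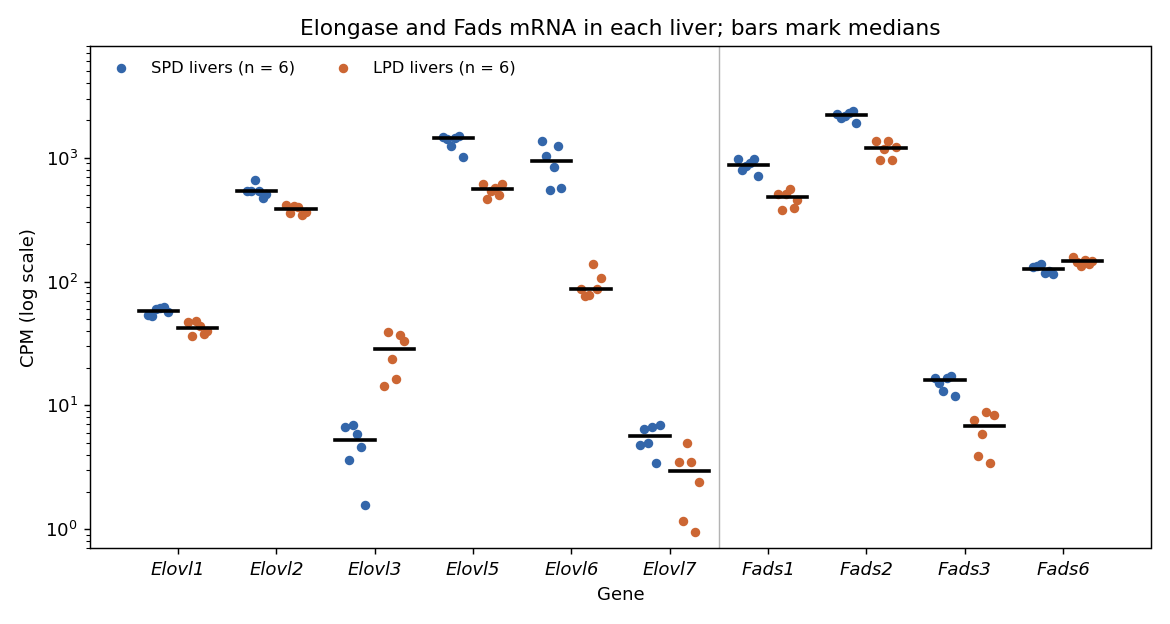
Level of each of the 10 genes in every liver, in CPM on a log axis; points are livers (6 per diet) and bars are medians. Elovl6 has a median of 940 CPM in SPD and 87.4 CPM in LPD livers, Elovl3 moves from 5.24 to 28.3 CPM, and only for Elovl7 and Fads6 do the diets overlap.

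Among elongases of saturated and monounsaturated chains, Elovl6, which makes stearate from palmitate, fell most. Its level, in CPM (counts scaled to a TMM-adjusted library total), was 551 in the lowest, 940 in the median and 1355 in the highest SPD liver, and 76.2, 87.4 and 138 in LPD livers. The lowest SPD liver thus stood far above the highest LPD liver. The log2 fold change was -3.28 ± 0.23 (SE; 6 against 6 livers; edgeR adjusted p = 1.39e-07), a 9.74-fold lower level, which ranked 15 among 13768 genes from the most lowered. Elovl6 varied much among SPD livers, with a coefficient of variation of 36.1%. Elovl3 varied more, at 41.8%, Elovl7 was at 24.9%, and the other members were at 6.57% (Elovl1) to 14.7% (Fads3). SPD replicates 3 and 6 were the low ones, at 551 and 572 CPM, and replicates 1 and 5 the high ones, at 1355 and 1238 CPM.

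Elovl3, which lengthens saturated and monounsaturated chains to very long ones and is known for daily and sex-dependent expression in liver, moved the other way. SPD livers held 1.58, 5.24 and 6.87 CPM (lowest, median, highest), and LPD livers 14.3, 28.3 and 39.1 CPM. The diets did not overlap, and LPD replicates 2, 5 and 6 were the highest, at 39.1, 37.1 and 32.8 CPM. These values rest on 32 to 151 counts per SPD library and 314 to 815 per LPD library. The rise was 2.48 ± 0.31 on the log2 scale (SE; edgeR adjusted p = 1.95e-05), or 5.59-fold, and ranked 19 from the most raised of 13768 genes. Without LPD replicates 2 and 5 it was 2.16 (adjusted p = 7.88e-05).

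Elovl1, which makes saturated very long chains that enter sphingolipids, had 53.1, 58.3 and 61.9 CPM in SPD and 36.3, 42.0 and 47.7 CPM in LPD livers. All LPD livers lay below all SPD livers, with a log2 fold change of -0.46 ± 0.072 (SE; edgeR adjusted p = 0.000164). Elovl1 overlaps Cdc20 on the opposite strand, a mitotic gene that fell by 1.97 on the log2 scale (adjusted p = 1.40e-05), and the use of strand in counting is not given in the sources used here. Cdc20 held 468 counts over all 12 libraries, against 751 to 1422 for Elovl1 in each library.

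Elovl7, another elongase of saturated very long chains, was scarce, at 3.40, 5.66 and 6.91 CPM in SPD and 0.952, 2.94 and 4.92 CPM in LPD livers. Here the diets overlapped, and LPD replicates 2 and 5 were lowest, with 24 and 19 counts. The log2 fold change was -1.01 ± 0.31 (SE; edgeR adjusted p = 0.0178). It was -0.63 without those livers (adjusted p = 0.0384), and with the SP1 and LP4 codes alone the call was lost, at -0.80 and an adjusted p of 0.0791.

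Elovl5 and Elovl2 serve the polyunsaturated arm, Elovl5 on shorter and Elovl2 on longer polyunsaturated chains. Elovl5 was at 1021, 1436 and 1499 CPM in SPD and 463, 557 and 613 CPM in LPD livers. There was no overlap, and SPD replicate 6 was the low liver of its diet. It fell by 1.30 ± 0.099 on the log2 scale (SE; edgeR adjusted p = 2.51e-07), to a level 2.46-fold lower. Elovl2 was at 474, 535 and 661 CPM in SPD and 345, 382 and 411 CPM in LPD livers. The groups again did not overlap, and the 661 CPM of SPD replicate 3 stood clear of the 474 to 538 CPM of the other SPD livers. The log2 fold change of Elovl2 was -0.51 ± 0.078 (SE; adjusted p = 0.000121), a 1.42-fold lower level.

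Fads2, the first desaturase of linoleate and α-linolenate, was the member with the most counts, at 1897, 2218 and 2396 CPM in SPD and 953, 1198 and 1377 CPM in LPD livers. Fads1, which forms arachidonate and eicosapentaenoate, was at 713, 881 and 979 CPM in SPD and 377, 482 and 563 CPM in LPD livers. Neither gene overlapped between the diets, and LPD replicates 2 and 5 were the low livers of both. Both fell by 0.89 on the log2 scale, Fads2 with an SE of 0.1 (edgeR adjusted p = 8.08e-06) and Fads1 with an SE of 0.11 (adjusted p = 1.25e-05), which is a 1.86-fold lower level for each. Without LPD replicates 2 and 5 the log2 fold changes were -0.76 and -0.77.

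Fads3, linked to desaturation of sphingoid bases rather than of polyunsaturated chains, was scarce, at 11.8, 16.0 and 17.2 CPM in SPD and 3.41, 6.76 and 8.78 CPM in LPD livers. The diets did not overlap, and LPD replicates 2 and 5 were again lowest, at 3.91 and 3.41 CPM. It fell by 1.25 ± 0.20 on the log2 scale (SE; edgeR adjusted p = 0.000161), and fell by 0.98 without those livers. Fads6, a family member whose substrate is less well known, was at 115, 126 and 139 CPM in SPD and 132, 146 and 157 CPM in LPD livers. Its ranges overlapped, and the rise of 0.20 ± 0.060 (SE; adjusted p = 0.0176) was 1.15-fold. That call was lost when LPD replicate 1 was counted as SPD (0.12, adjusted p = 0.235) and with the SP1 and LP4 codes alone (0.16, adjusted p = 0.151).

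To compare genes with each other, levels were expressed per length as TPM, a share of all transcripts, from the gene lengths in the deposited table. In SPD livers Elovl5 was the most abundant elongase transcript at 878 ± 98.5 TPM (SD, n = 6), followed by Elovl6 at 640 ± 212, Elovl2 at 256 ± 36.4, Elovl1 at 78.0 ± 6.61, Elovl3 at 4.66 ± 1.97 and Elovl7 at 2.49 ± 0.652. Elovl5 and Elovl6 overlapped in range, although Elovl5 was above Elovl6 in 6 of 6 livers, and Elovl3 was above Elovl7 in 5 of 6. In LPD livers Elovl5 was still first at 368 ± 56.9 TPM, but Elovl2 was second at 184 ± 21.6, and Elovl6, at 68.4 ± 19.7, overlapped Elovl1 at 58.3 ± 8.57, standing above it in 4 of 6 livers. Elovl3, at 26.4 ± 9.52 TPM, was below Elovl1 and above Elovl7, at 1.28 ± 0.729, in 6 of 6 livers. The order of the Fads genes was the same under both diets and without overlap: Fads2 at 1253 ± 85.7 TPM in SPD and 696 ± 145 in LPD livers, Fads1 at 454 ± 47.4 and 252 ± 50.2, Fads6 at 46.2 ± 3.89 and 54.2 ± 5.30, and Fads3 at 7.41 ± 0.897 and 3.22 ± 1.30.

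Summed over the 6 elongases, transcripts went from 1858 ± 268 TPM in SPD to 706 ± 90.5 TPM in LPD livers (SD, n = 6), or 38.0% of the SPD level. The 5 elongases other than Elovl6 stood at 52.3% of the SPD level, and the 4 Fads genes at 57.1%, from 1761 ± 131 to 1006 ± 199 TPM. Without LPD replicates 2 and 5, an alternative chosen after the data were seen, these 3 levels were 41.0%, 56.3% and 63.8% of those in SPD livers. Elovl6 made up 33.7 ± 6.95% of elongase transcripts in SPD and 9.60 ± 1.89% in LPD livers, a difference of -24.1 percentage points (exact two-sided permutation test over all labelings of the livers, p = 0.00216, the smallest that 6 against 6 allows). The share of Elovl5 was 47.5 ± 2.97% and 51.9 ± 2.01%, that of Elovl2 14.1 ± 3.55% and 26.1 ± 1.56%, that of Elovl1 4.30 ± 0.875% and 8.27 ± 0.661%, and that of Elovl3 0.249 ± 0.107% and 3.91 ± 1.78%. The Elovl6 share of the 6 LPD livers, at most 13.1%, was below that of every SPD liver, at least 23.9%. Among Fads transcripts, Fads2 held 71.2 ± 0.867% in SPD and 69.1 ± 1.17% in LPD livers (-2.08 percentage points, exact permutation p = 0.0108), Fads1 25.8 ± 0.998% and 25.1 ± 1.18%, and Fads3 0.420 ± 0.0347% and 0.309 ± 0.0781%. The Fads6 share was 2.63 ± 0.294% in SPD and 5.50 ± 0.761% in LPD livers, with no overlap, the widest difference in share among the Fads genes at 2.87 percentage points. The Fads2 difference missed the threshold with the SP1 and LP4 codes alone (-1.91 percentage points, exact permutation p = 0.0571). The smallest p that 4 against 4 livers allow in this test is 0.0286.

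**Figure D2:**
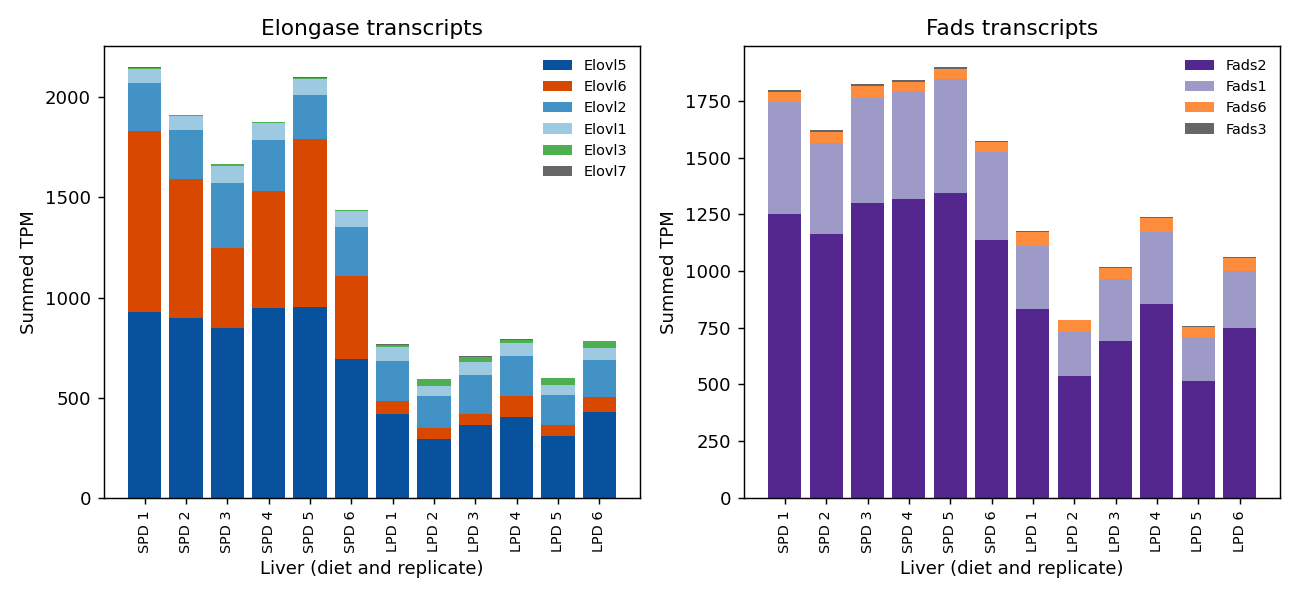
Summed TPM of the 6 elongases (left) and the 4 Fads genes (right) in each of the 12 livers, with the part of each gene stacked. The Elovl6 segment averages 33.7% of the SPD columns and 9.60% of the LPD columns, and Fads2 takes 71.2% and 69.1% of the Fads columns, which are lower in LPD livers.

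Ratios between members within a liver do not depend on library scaling. For each of the 45 pairs the log2 ratio of TPM (with 0.1 TPM added) was compared between the diets by the exact permutation test, adjusted over the 45 pairs, and 36 differed. The widest difference was between Elovl3 and Elovl6, whose log2 ratio went from -7.14 ± 0.777 in SPD to -1.41 ± 0.814 in LPD livers (SD, n = 6), a difference of 5.73 (95% interval 4.69 to 6.75; exact permutation p = 0.00216, adjusted p = 0.00336). Against every other member, too, Elovl6 fell further and Elovl3 rose. Within the polyunsaturated arm, Elovl5 fell more than Fads1 by 0.39 (0.22 to 0.57 lower; adjusted p = 0.00336) and more than Elovl2, whose ratio to Elovl5 rose by 0.79 (0.50 to 1.07; adjusted p = 0.00336). Elovl2 fell less than Fads2 by 0.40 (0.17 to 0.63; exact permutation p = 0.00866, adjusted p = 0.0115).

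The ratio of Fads1 to Fads2 differed between the diets by less than the spread among livers: its log2 value was -1.47 ± 0.0726 in SPD and -1.46 ± 0.0887 in LPD livers, a difference of 0.0042 with a 95% interval of -0.10 to 0.11 (exact permutation p = 0.95). For Elovl1 and Elovl2 the difference was 0.045 (-0.14 to 0.22), and for Elovl5 and Fads3 0.013, with a wider interval of -0.35 to 0.39. The other 6 pairs that did not pass were those of Elovl7 with Elovl1, Elovl2, Elovl5, Fads1, Fads2 and Fads3. Their intervals were wide: the log2 ratio of Elovl2 to Elovl7, for example, differed by 0.61 (-0.15 to 1.40). Elovl7 was at 0.511 and 0.403 TPM in LPD replicates 2 and 5 and at 1.16 to 2.27 TPM in the other LPD livers.

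**Figure D3:**
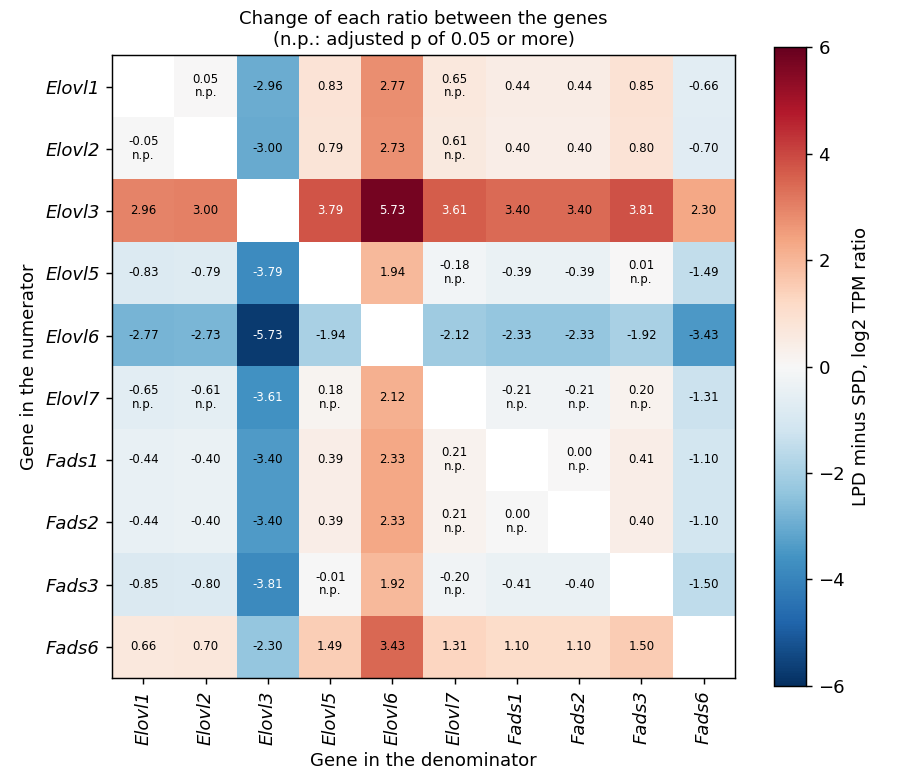
Difference between the diets in the log2 TPM ratio of each gene (row) to each other gene (column), LPD minus SPD; n.p. marks the 9 pairs that did not pass at an adjusted p of 0.05. The Elovl3 row is positive and the Elovl6 row negative throughout, with 5.73 where they meet, and the cell of Fads1 and Fads2 is at 0.0042.

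Some members also varied together among livers of the same diet. Of 45 pairs, 6 passed the test of r, all of them among Elovl5, Fads1, Fads2 and Fads3, while the other 6 members were in no pair that passed it. Of these pairs, 5 also passed the test of rho. After each diet's mean of log2 CPM was removed, Fads1 and Fads2 had a Pearson r of 0.919 over 12 livers (Spearman rho 0.829; permutation within diets, adjusted over 45 pairs, p = 0.0069 for r and 0.0318 for rho). It was 0.964 in SPD and 0.929 in LPD livers alone, and 0.867 without the 2 farthest livers. Here and below these are the 2 livers farthest from the median in the first-named gene, diet means removed. The second gene played no part in that choice, and diet means were not taken anew. Fads2 and Fads3 had an r of 0.936 and a rho of 0.857 (adjusted p = 0.0069 and 0.0318), and 0.863 without the 2 farthest. Elovl5 and Fads3, on different chromosomes, had an r of 0.779 and a rho of 0.886 (adjusted p = 0.0069 and 0.0318), with 0.966 in SPD and 0.895 in LPD livers alone and 0.806 without the 2 farthest. Elovl5 and Fads2 had an r of 0.786 and a rho of 0.829 (adjusted p = 0.0129 and 0.0318), and 0.693 without the 2 farthest. Elovl5 and Fads1 passed by r alone, with an r of 0.765 and a rho of 0.743 (adjusted p = 0.0359 and 0.0781). Their r was 0.516 without the 2 farthest.

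Since LPD replicates 2 and 5 were low in all of these genes, the relations were also computed without them, a choice made after the data were seen. The r over 10 livers was then 0.850 for Fads1 and Fads2, 0.797 for Fads2 and Fads3, 0.821 for Elovl5 and Fads3 and 0.740 for Elovl5 and Fads2. Elovl6 and Elovl5 had an r of 0.737 over 12 livers (adjusted p = 0.0537), a rho of 0.8 (adjusted p = 0.0406) and an r of 0.738 over the 10 livers. Elovl6 and Fads3 had an r of 0.592 (adjusted p = 0.0537), a rho of 0.829 (adjusted p = 0.0318) and an r of 0.841 over the 10 livers. Elovl3 had no common relation to the desaturases: its r with Fads2 was 0.797 among SPD livers and -0.898 among LPD livers, and -0.222 over both (adjusted p = 0.638). The smallest adjusted p of r between Fads6 and another member was 0.247.

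**Figure D4:**
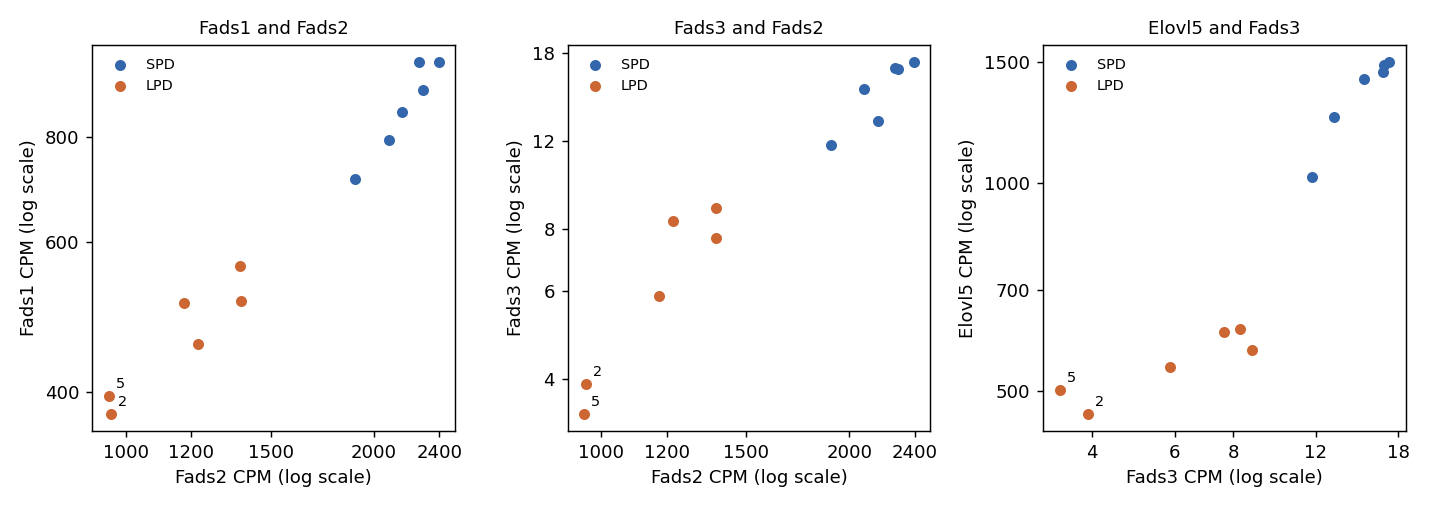
Levels of 3 pairs of genes in each liver, in CPM on log axes; points are livers, coloured by diet, and LPD replicates 2 and 5 are numbered. Within each diet the genes of a pair rise together, with r of 0.919 for Fads1 and Fads2, 0.936 for Fads3 and Fads2 and 0.779 for Elovl5 and Fads3 once diet means are removed.

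The genes whose log2 CPM followed a member most closely across the 12 livers, diet means removed, are a description chosen from all tested genes. For Elovl6 they were Pnldc1 (r = 0.942), Fasn, which makes the palmitate that Elovl6 lengthens (0.929), and Rassf3 (0.905). Fasn fell by 2.75 on the log2 scale and Pnldc1 rose by 0.41. For Fads1 they were Slc12a4 (0.948), Synj2 (0.934) and Fads2 (0.919), and for Fads2 they were Grb10 (0.952), Fads3 (0.936) and Arl8a (0.928). Elovl5 had Zfp438 (0.968), Gm5602 (0.905) and Gm36958 (0.903), and Elovl3 had Gm45769 (0.961), Sgk2 (0.932) and Lhpp (0.925). None of these 6 last genes passed the diet test.

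The partner enzymes that complete each elongation cycle were split. Of 6 tested, 3 fell under LPD and 3 did not pass (list median -0.39). The ketoacyl reductase Hsd17b12 fell from 300.2 ± 30.2 to 211 ± 9.53 CPM (SD, n = 6; log2 fold change -0.51 ± 0.066 SE, edgeR adjusted p = 2.91e-05). Tecr, the enoyl reductase of the last step, fell by 0.64 ± 0.070 (adjusted p = 5.99e-06), and the dehydratase Hacd1 fell by 0.69 ± 0.094 (adjusted p = 4.58e-05). The more abundant dehydratases did not pass: Hacd3 was at 260.0 ± 12.2 and 264 ± 9.42 CPM, and Hacd2 at 60.1 ± 3.29 and 58.4 ± 5.20 CPM (adjusted p = 0.768 and 0.628).

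Desaturation takes electrons from cytochrome b5 and its reductases. Of 5 such genes tested, 3 were lower and 2 higher (list median -0.34). Cyb5r3, the main reductase gene, fell from 1014 ± 122 to 475 ± 49.4 CPM (log2 fold change -1.09 ± 0.090 SE, edgeR adjusted p = 4.57e-07), and Cyb5r4 fell by 0.34. Cyb5a, the electron carrier, rose from 621 ± 25.3 to 1174 ± 140 CPM (0.92 ± 0.075, adjusted p = 4.24e-07). The other desaturases tested, 3 of 3, were lower. Scd1, which makes oleate from the stearate that Elovl6 supplies, fell from 43382 ± 6847 to 6583 ± 753 CPM (-2.72 ± 0.12, adjusted p = 2.98e-09), Scd2 changed by -3.51 (adjusted p = 3.73e-08), and Degs1, of dihydroceramide desaturation, by -0.49. The Elovl6 change thus lay between those of Scd1 and Scd2, and those of Fads1 and Fads2 were smaller than either.

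**Figure D5:**
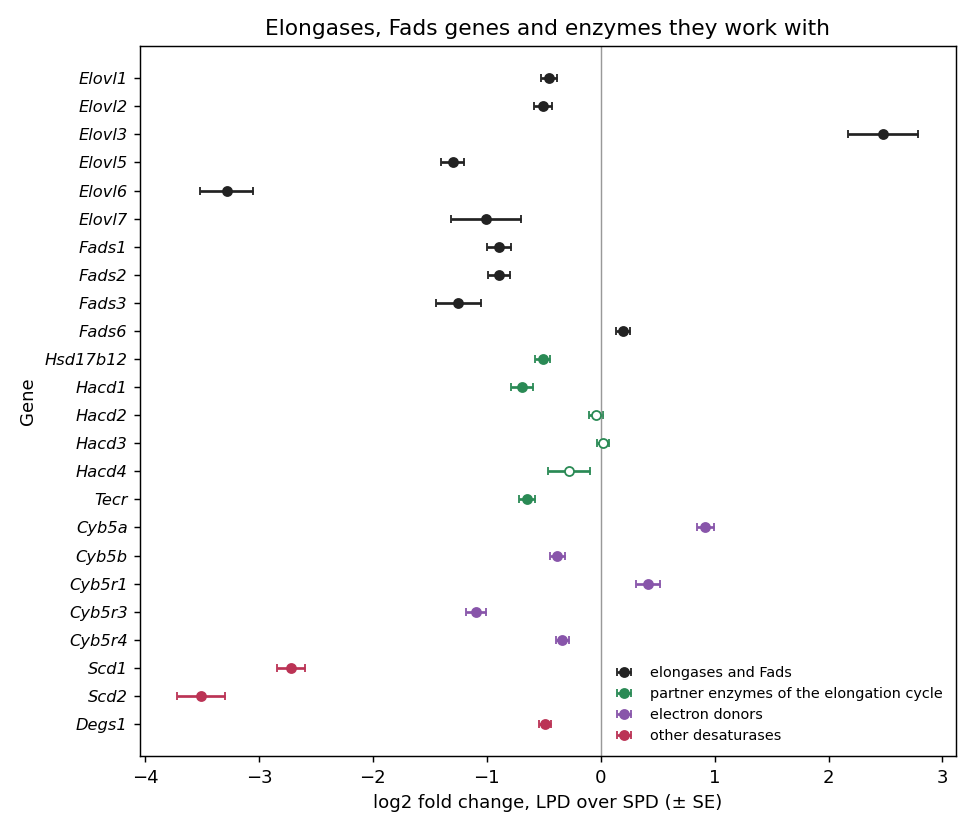
Log2 fold change of LPD over SPD, with its SE, for the 10 genes and the tested genes of 3 lists of enzymes that work with them; open circles did not pass at an adjusted p of 0.05. Elovl6 at -3.28 sits beside Scd1 at -2.72 and Scd2 at -3.51, and Elovl3 at 2.48 and Cyb5a at 0.92 lie on the opposite side.

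Fatty acid activation by acyl-CoA synthetases and transporters was mixed, with 4 of 8 tested genes lower and 2 higher (list median -0.32). The log2 fold changes were -1.14 for Acsl5, -0.92 for Acsl3 and -0.61 for Slc27a4. The 2 higher genes, named after their values were seen, were Acsl1 (0.64, edgeR adjusted p = 0.000569) and Slc27a2 (0.55, adjusted p = 0.000152), at means of 1443 and 1312 CPM in LPD livers. Of 8 tested genes that place acyl chains in phospholipids, not all of them chiefly polyunsaturated chains, 1 fell, Lpcat3 (-0.53, edgeR adjusted p = 0.000109). Agpat3 was higher by 0.24 (adjusted p = 0.00398), and 6 did not pass (list median -0.35). The list for peroxisomal chain shortening, the last step to docosahexaenoate, had 2 of 9 higher and 7 not passed (list median 0.079). The higher genes were Acaa1a, by 0.46, and Abcd4, by 0.44. Abcd4 was listed by its family name and is not itself a gene of that step. Of 4 tested ceramide synthases, not all of which use the very long chains of Elovl1 and Elovl3, 1 was higher, Cers2, by 0.18 (edgeR adjusted p = 0.0337). That call was lost in 9 of 22 alternatives, among them that without LPD replicates 2 and 5.

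Transcripts of known regulators gave 4 higher, 3 lower and 6 not passed of 13 (list median 0.043). Srebf1, which encodes SREBP-1c, was at 158 ± 37.8 CPM in SPD and 150 ± 8.74 CPM in LPD livers (log2 fold change -0.074 ± 0.11 SE, edgeR adjusted p = 0.646), and its sign turned in 2 of 22 alternatives. Insig1, which holds SREBP back and is itself an SREBP target, fell from 354 ± 47.9 to 116 ± 19.8 CPM (-1.61 ± 0.11, adjusted p = 1.20e-07), and Scap, the SREBP escort, fell by 0.43 (adjusted p = 0.000222). Hnf4a rose by 0.41 (adjusted p = 8.30e-05). Mlxipl, which encodes the carbohydrate-responsive factor ChREBP, rose by 0.23 (adjusted p = 0.0366), a call lost in 11 of 22 alternatives, and Ppara did not pass (-0.027, adjusted p = 0.718).

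Genes next to the Fads cluster had smaller log2 fold changes than its 3 members. Of 5 tested neighbours, 3 were lower and 1 higher (list median -0.38): the log2 fold change was -0.67 for Rab3il1 (edgeR adjusted p = 0.00461), -0.38 for Fth1, the ferritin heavy chain (adjusted p = 0.00201), and -0.43 for Fen1 (adjusted p = 0.0347), a call lost in 11 of 22 alternatives. Fen1 ends 2255 bases from Fads1. Myrf rose by 0.24 (adjusted p = 0.00471), Tmem258, which overlaps Fen1, did not pass (-0.18, adjusted p = 0.163) except without SPD replicate 3 (-0.24, adjusted p = 0.0332), and Best1 was below the filter. The differences between the Fads genes and these neighbours were not tested.

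As Elovl3 is known to follow the clock and growth hormone, lists for both were examined. Of 14 clock genes tested, 7 were higher and 7 did not pass (list median 0.30), with Nfil3 higher by 1.17, Hlf by 0.64 and Cry2 by 0.32 (edgeR adjusted p = 0.000431, 7.85e-06 and 0.000439). Of 10 male-biased genes tested, 1 was higher, Ugt2b38, by 0.27 (adjusted p = 0.0315; call lost in 8 of 22 alternatives), and 9 did not pass (list median -0.000072). Most of the summed male-biased list was Mup20, at means of 2773 ± 836 CPM in SPD and 2454 ± 1310 CPM in LPD livers (SD, n = 6). Hsd3b5 and Slco1a1 were below the filter. The sum was 2577 to 4676 CPM in SPD livers. It was 2207 and 1397 CPM in LPD replicates 2 and 5, the livers with most Elovl3. The other LPD livers held no less than 3147 CPM, among them replicate 6 with 32.8 CPM of Elovl3. The part of the clock or of growth hormone in the Elovl3 difference was not tested.

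Hepatocyte markers were abundant in all livers, with 74818 to 105013 summed CPM in LPD and 80371 to 87556 in SPD livers. Of 9 tested, 5 were higher in LPD livers, Cyp2e1 by 1.85 and Ahsg by 0.84 among them, and 4 did not pass. Most of the sum was Alb, at means of 65535 CPM in SPD and 57232 CPM in LPD livers, which did not pass (-0.20, edgeR adjusted p = 0.174). Markers of lipid-associated macrophages were 5 of 8 lower and 3 not passed, with log2 fold changes of -3.43 for Fabp5, -1.05 for Cd9 and -1.95 for Spp1, and their sum was 571 to 831 CPM in SPD and 125 to 385 CPM in LPD livers. Stellate cell and fibroblast markers were 5 of 10 lower and 5 not passed, with -1.13 for Col3a1, -1.11 for Col1a1 and -0.57 for Rgs5, at 598 to 790 and 388 to 670 summed CPM. LPD replicates 2 and 5, the livers with least Fads3 and Elovl7, had the lowest sums of both lists, 145 and 125 CPM for the macrophage list and 388 and 411 CPM for the stellate list, while the other LPD livers began at 283 and 521 CPM. They were also the lowest LPD livers for the summed markers of Kupffer cells and macrophages (724 and 679 CPM, others from 887), cholangiocytes (46.3 and 43.2, others from 62.7), adipocytes (111 and 101, others from 175), neutrophils (1.5 and 1.60, others from 2.45) and T and NK cells (2.08 and 2.56, others from 3.50). The adipocyte sum was nearly all Cidec (means of 190 and 165 CPM in SPD and LPD livers), with the other markers below the filter. Those had means of at most 0.191 CPM (Cfd in LPD livers), so the sum followed Cidec and does not measure adipocytes. Most of the cholangiocyte sum was Spp1, which is also on the lipid-associated macrophage list. LPD replicates 2 and 5 were not the lowest LPD livers for sinusoidal endothelium (447 and 445, others from 423) or B cells (5.41 and 4.26, others from 3.87). Their hepatocyte sums were 97920 and 105013 CPM (others from 74818). The part of these cells in the members' differences was not tested. Of Kupffer cell and macrophage markers 1 of 11 was higher (Marco) and 2 lower (Cd68, Cd5l), of sinusoidal endothelium 1 of 9 higher (Oit3) and 2 lower (Kdr, Stab1), of cholangiocytes 1 of 5 lower (Spp1), of B cells 1 of 3 lower (Ighm), of neutrophils 1 of 3 lower (S100a8), and of T and NK cells 0 of 2 (Nkg7 had the smaller p) and of adipocytes 0 of 1 (Cidec) passed the edgeR test. Of these calls, that of Marco was lost in 9 of 22 alternatives, of Cd5l in 10, of Oit3 in 11, of Stab1 in 4, of S100a8 in 12 of 21, and of Cd68 and Kdr in 1 each.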

How the data were processed

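RNA of 12 livers was sequenced from libraries made with an Illumina TruSeq kit. TopHat, DESeq2 and mm10 are named in the submitters' processing notes with neither version nor role. How reads were counted, on which annotation and with which strand setting is not stated there. The authors deposited expected counts per gene and library, not scaled between libraries, with a gene length. Expected counts were rounded and tested in edgeR 4.0.16 (R 4.3.3): filterByExpr (minimum count 10, minimum total 15), TMM, quasi-likelihood F test of LPD against SPD, Benjamini-Hochberg over 13768 genes. SE is the absolute log2 fold change over the square root of F. Fold changes are LPD over SPD. TPM used the deposited lengths. The test was tried on simulated data first. Ratio intervals invert the exact permutation test.

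Members and lists were chosen with earlier results of these data known. Named genes were all members and, of each list, up to 3 called genes with the smallest adjusted p (otherwise the 1 with the smallest p), with Srebf1, Mlxipl, Insig1, Ppara, Hsd17b12, Hacd1 to Hacd3, Tecr, the Fads neighbours and, for 5 members, the 3 most similar genes. Cdc20, Gm35986 and Pitx3 were named because they overlap members. Coordinates are from GENCODE M21. Alternatives were other scalings and filters, DESeq2 1.42.0, limma-voom 3.58.1, the replicate number as a block, other pseudocounts, CPM shares, left-out libraries, and LPD replicate 1 counted as SPD. The labels describe 6 mice per diet.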

Additional observations from a re-analysis of the deposited data

Results flagged for a closer look

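In the SPD group, the Elovl2 level of replicate 3, 661 CPM, stood further from the nearest of the other 5 livers than Dixon's criterion for 6 samples allows. Of 20 groups examined, 10 genes in 2 diets, 1 met it, and chance gives about 1 in 20. The same liver had the lowest Elovl6 level of its diet, 551 CPM.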

How the results depend on the processing

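Over 22 alternatives for each of the 10 genes, 217 of 220 kept direction and call. The 3 losses were Elovl7 with the SP1 and LP4 codes alone and Fads6 with those codes alone and with LPD replicate 1 counted as SPD, so that 1 member was called higher in the last 2 settings. The codes alone, with 4 libraries per diet, gave 1827 genes higher and 1693 lower. The Fads2 share difference was -1.91 percentage points with the codes alone (exact permutation p = 0.0571, where the smallest possible is 0.0286). Replicate numbers did not pair the livers (r of deviations -0.054 to 0.097). With the replicate number as a block, 2668 genes were higher and 2562 lower, all 10 member calls were kept, and 33 of 45 ratios passed. The Fads2 share difference of -2.08 then had an exact permutation p of 0.0625, where the smallest possible is 0.03125. Signs turned, without a call in the main test, for Hacd2 with LPD replicate 1 counted as SPD (0.010), Hacd3 with the codes alone (-0.024) and without LPD replicates 2 and 5 (-0.0089), Srebf1 with limma-voom (0.00071) and without SPD replicate 3 (0.071, against -0.12 without SPD replicate 5), and Cidec without LPD replicates 2 and 5 (0.037); the cause was not tested. Leaving out each library in turn moved the Elovl6 share difference between -26.1 and -22.5 percentage points and the called ratios between 34 and 38. Elovl7, Fads3 and, in SPD livers, Elovl3 rest on few counts. Expression measures mRNA, not enzyme activity or fatty acids.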
